A study of Mus musculus with 12 samples.

Results

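The 47 complement and coagulation genes described here were the rows of the liver and cell count tables whose identifiers map to a listed mouse symbol, out of 55357 identifiers in each table. They cover the classical, lectin, alternative and terminal complement pathways, the anaphylatoxin receptors, the clotting factors, the anticoagulants and plasmin with its inhibitor. RNA was sequenced in 12 libraries that form 4 groups of 3. The liver libraries came from wild-type male C57BL6/J mice, 8 to 9 weeks old, that received by daily gavage 2.5% Tween-80 (control) or esculetin, a plant coumarin, at 90 mg/kg for 7 days. All of these mice were fed a control diet with 10% of its energy from fat for 4 days followed by 3 days on a high-fat diet with 60%. The cell libraries came from RAW264.7, a mouse macrophage line, and all were exposed for 24 h to 25 µg/mL of DIL-oxLDL, oxidized low-density lipoprotein carrying a dye, with DMSO (control) or with esculetin at 40 µg/mL. Each liver sample was a pool of 2 mice, and the labels do not say whether the cell replicates were separate cultures, so that p-values in the cells measure only the spread between these samples.

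Complement is a cascade of plasma proteases. C1q, mannose-binding lectins or spontaneous turnover start it, all routes meet at C3, and the terminal components C5 to C9 then assemble a pore in the target membrane. Coagulation is another protease cascade, which tissue factor or the contact system starts and in which thrombin turns fibrinogen into fibrin, while plasmin dissolves the clot. Hepatocytes secrete most of the soluble proteins of both systems, whereas C1q, properdin, the anaphylatoxin receptors and inducible tissue factor are typical products of macrophages and other myeloid cells.

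Promoter sequences are shown first, because a large share of the members are known as liver acute-phase or liver-enriched genes and C/EBP factors, leucine zipper proteins active in hepatocytes and macrophages, are known regulators of several of them. The promoter was taken as the 250 bases before and 50 bases after the canonical GENCODE start in GRCm39, and 6 motifs were searched on both strands. The C/EBP letters TTGCNNAA occurred in 12 of 47 member promoters (25.53%) and in 10.66% of 21770 promoters of protein-coding genes. The HNF1 motif GTTAATNA, for a homeodomain factor of hepatocytes, occurred in 6 members (12.77%) against 2.503% of all promoters, and the STAT motif TTCNNNGAA in 6 members (12.77%) against 8.815%. The ISRE letters GAAANNGAA were found in 3 members (6.383%) against 8.778% of all promoters, the NF-kB letters GGGNNTTTC in 1 member (2.128%) against 4.474%, and the HNF4 letters CAAAGTCCA in 0 members against 0.4502%. No member had matches of different motifs that shared bases, and 23 members had no match at all. These matches describe letters in a window and are not binding sites. The 12 C/EBP windows are printed 5′ to 3′ on the strand of the gene, with the match in capitals and positions counted from the start, where -1 is the base before it; they were chosen for the match and not for a change in expression.
C3 (chr17:57535163-57535192, minus strand, match from position -26): aggaaactatgTTGCGAAAttttgggcagt
C9 (chr15:6474684-6474713, plus strand, match from position -113): tttttggtttaTTGCATAAtgacactttgt
C6 (chr15:4756299-4756328, plus strand, match from position -215): aagccccatgaTTGCCAAAaccccgaagaa
C1ra (chr6:124489288-124489317, plus strand, match from position -65): gtgaataagaaTTGCAAAAaaggggccaat
C1s1 (chr6:124519539-124519568, minus strand, match from position -242): agagagaaTTAGGCAAtctcaaaattcccc
Fga (chr3:82933314-82933343, plus strand, match from position -197): gctacagagaaTTGAGCAAgagtttctggg
Fgb (chr3:82957232-82957261, minus strand, match from position -80): ctgggaagatgTTGCTCAAatgataaagca
Kng1 (chr16:22876873-22876902, plus strand, match from position -116): actgtggagagTTGAGCAAtgttttagaaa
Klkb1 (chr8:45748031-45748060, minus strand, match from position -149): cccatggattcTTCTGCAAagggacccatt
F9 (chrX:59044789-59044818, plus strand, match from position -24): agccctgacgcTTGCACAAtctcctaacaa
F5 (chr1:163979089-163979118, plus strand, match from position -189): cttactaaggcTTGCAGAAatcagctgaca
Serpinc1 (chr1:160806146-160806175, plus strand, match from position 12): aaagagcacacTTGCGTAAgactcgccata
The C3 and F9 matches stood within the 30 bases before the start, and the Serpinc1 match lay behind the start, in the first bases of the transcript. Of the 12 genes, C1ra, C3, F9 and Serpinc1 were tested in the cells, and all 12 in the liver.

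C3ar1, the member with the largest change in the cells, held the only NF-kB match among the members, on the reverse strand from position -7, in capitals.
C3ar1 (chr6:122833073-122833372, minus strand): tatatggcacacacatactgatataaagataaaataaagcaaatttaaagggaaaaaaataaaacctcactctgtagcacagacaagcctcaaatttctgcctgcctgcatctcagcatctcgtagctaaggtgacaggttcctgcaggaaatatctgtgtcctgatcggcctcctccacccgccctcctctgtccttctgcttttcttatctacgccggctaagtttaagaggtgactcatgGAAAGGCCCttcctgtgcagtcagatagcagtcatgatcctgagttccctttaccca
No motif was found in the promoters of F3, C8b and F11, which had the smallest p-values among the coagulation members in the cells and among the complement and the coagulation members in the liver.

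The liver libraries held between 14659876 and 20346460 counts each and the cell libraries between 13752842 and 20001959, and levels are given as CPM, counts made comparable between libraries by total and TMM factor. The first principal component held 44.9% of the variance of the liver libraries and set control replicate 1 (-37.9) apart from the other 5 (-2.77 to 14.4). In the cells it held 83.0% and separated esculetin from control. Hepatocyte markers summed to 108296 to 136250 CPM in the liver libraries and to at most 1.10 CPM in the cells. In the cells 7 of 8 listed macrophage markers, Cd68, Csf1r, Lyz2, Adgre1, Itgam, Fcgr1 and Ptprc, were expressed highly enough to test. The remaining one, Mertk, had 1 to 3 counts in the control libraries and 4 to 12 with esculetin. The resident Kupffer cell marker Timd4 was at 0 in all 6 libraries.

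In the liver, no complement or coagulation gene changed past the test. The members took 2.77% to 3.31% of all counts, and 46 of 47 passed the filter on low counts; F13a1, the A subunit of the fibrin-linking factor XIII, did not, with 1 to 11 counts per library. The threshold for a call was an adjusted p under 0.05 in edgeR's quasi-likelihood test, with Benjamini-Hochberg adjustment over every gene tested; it was met by 0 of 46 members and by 0.0859% of the 12813 genes. An unadjusted p-value under 0.05 was found for 3 members, C8b, C9 and F11, against 8.37% of all genes. The log2 fold changes of esculetin over control ran from -0.38 to 0.64, with a median of 0.025 against -0.020 for all genes, and 28 were above 0 and 18 below. For 36 of the 46 members the 95% confidence interval of the fold change lay within 1.5-fold in either direction, and for 43 within 2-fold.

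**Figure D1:**
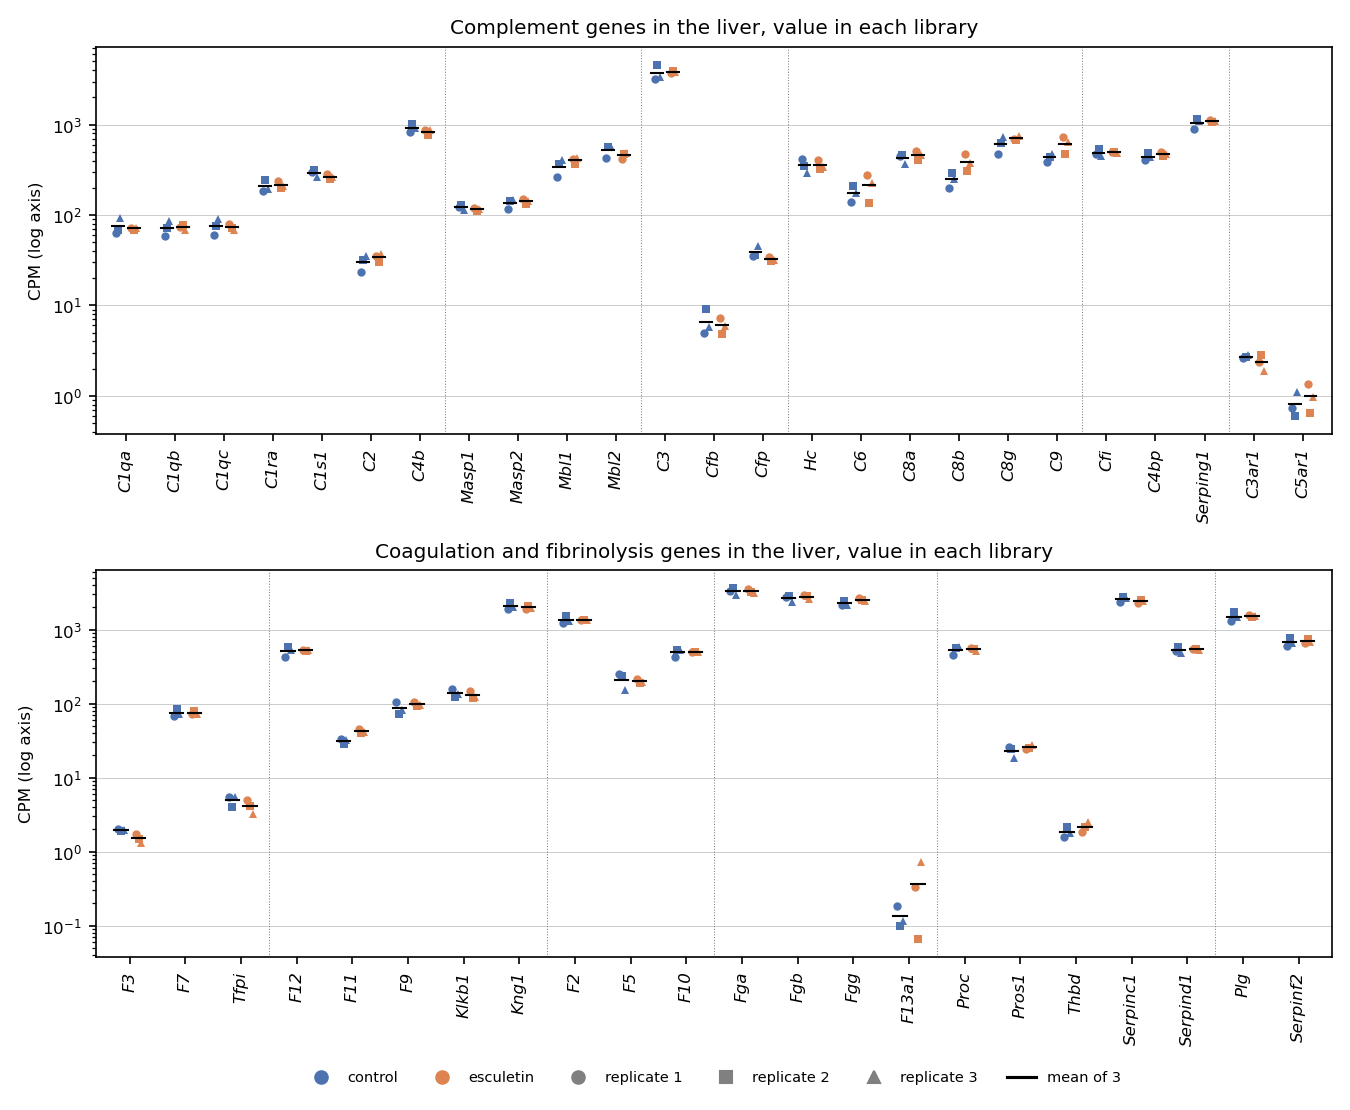
CPM (log axis) of the 47 members in each of the 6 liver libraries, ordered by role with dotted lines between roles; points are libraries, with shape for the replicate and colour for the group, and bars are means of 3. C8b, C9 and F11 are the members whose esculetin libraries all lie above the controls, and the fibrinogen chains and C3 are among the members of highest CPM.

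The levels spanned several orders of magnitude. Per kb of exon, which allows genes to be compared, Fga, the fibrinogen alpha chain, led the control livers at 1031 ± 120 CPM per kb (SD, n = 3), followed by Fgg, the gamma chain, at 937 ± 70.0, C3 at 716 ± 153, Fgb, the beta chain, at 693 ± 74.1 and Kng1, the kininogen from which bradykinin is cut, at 631 ± 61.2. Fga and Fgg lay within a SD of each other, as did C3 and Fgb and then Fgb and Kng1, whereas the steps from Fgg to C3 and from Kng1 down to Plg, plasminogen, at 402 ± 54.0 CPM per kb, were larger than either SD. At the bottom stood C3ar1 at 0.539 ± 0.0168, C5ar1 at 0.316 ± 0.103, Thbd, the thrombin receptor of endothelium, at 0.252 ± 0.0361 and F13a1 at 0.0196 ± 0.00664. Since the exons of all isoforms were joined, genes with many isoforms, such as Masp1, come out low on this scale.

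Among the terminal components, which build the membrane attack complex, all 6 members had log2 fold changes above 0, from 0.018 for Hc, the mouse C5 gene, to 0.64 for C8b, and none was called. C8b, the beta chain of C8 (chr4:104623328-104662573), stood at 200, 292 and 252 CPM in the controls and at 477, 306 and 381 CPM with esculetin. The groups did not overlap, and replicate 1 was the highest esculetin library. Esculetin over control gave a log2 fold change of 0.64 ± 0.18 (SE), with an adjusted p of 0.309 in edgeR. C9, the subunit that polymerizes into the pore (chr15:6474795-6547009), had 390, 444 and 473 CPM in the controls and 726, 476 and 644 CPM with esculetin. Here too replicate 1 was highest and the groups were separate, though the lowest esculetin library lay close to the highest control. For C9 the log2 fold change was 0.50 ± 0.16, with an adjusted p of 0.417 in edgeR. The other members of this group, C6, C8a, C8g and Hc, overlapped between the groups, and esculetin replicate 1 was the highest of the 6 libraries for 4 of the 6 terminal components. Without that library the log2 fold changes were 0.46 for C8b and 0.35 for C9, with adjusted p-values of 0.827 and 0.854 in edgeR. DESeq2 called C8b in the same libraries, with an adjusted p of 0.0392, and edgeR without the filter on low counts called C8b and C9, with adjusted p-values of 0.000501 and 0.0263, while limma-voom called 0 members.

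Of the contact system and intrinsic pathway, which clot blood on contact with negatively charged surfaces, F11 was the member without overlap. F11, the zymogen of factor XIa (chr8:45693697-45715177), measured 33.2, 28.6 and 32.3 CPM in the controls and 45.7, 39.7 and 40.7 CPM with esculetin. Every esculetin library was above every control, and the spread within each group was small. Its log2 fold change was 0.42 ± 0.12, with an adjusted p of 0.329 in edgeR. Over 15 alternatives the value ran from 0.345 to 0.471, with 0.47 without control replicate 1, and F11 was called in 0 of them. The log2 fold changes of F12, F9, Klkb1 and Kng1 were between -0.080 and 0.17 and their groups overlapped.

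C3, Fga and Fgb, the 3 members of highest CPM, differed between the groups by less than the SD of the controls. C3, the hub of all complement routes (chr17:57510964-57535155), had 3164, 4621 and 3351 CPM in the controls and 3770, 3893 and 3839 CPM with esculetin. The esculetin libraries lay close together inside the range of the controls, and the log2 fold change was 0.046 ± 0.16. Fga had 3330, 3680 and 2910 CPM in the controls and 3548, 3170 and 3109 CPM with esculetin, a log2 fold change of -0.014 ± 0.14. For Fgb the controls read 2780, 2844 and 2325 CPM and the esculetin libraries 2978, 2810 and 2609 CPM, a log2 fold change of 0.079 ± 0.14. The intervals of these 3 fold changes at the 95% level ran on the log2 scale from -0.30 to 0.40 for C3, from -0.32 to 0.29 for Fga and from -0.22 to 0.38 for Fgb. Fgg, the remaining fibrinogen chain, had a log2 fold change of 0.16 ± 0.13 and its groups overlapped.

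The remaining roles showed no call and little movement. In the classical pathway, from the C1 complex to the C3 convertase, the 7 members had log2 fold changes from -0.14 for C4b to 0.18 for C2, and in the lectin pathway, where mannose-binding lectins and their proteases act, the 4 members ran from -0.20 for Mbl2 to 0.23 for Mbl1. The complement inhibitors Cfi, C4bp and Serping1 lay between 0.023 and 0.10. Thrombin (F2), factor V (F5) and factor X (F10), which form the common pathway, lay between -0.078 and 0.022. The anticoagulants Proc, Pros1, Thbd, Serpinc1 (antithrombin) and Serpind1 ran from -0.11 to 0.23, and Plg and its inhibitor Serpinf2 from 0.027 to 0.052. The 3 members around tissue factor, F3, F7 and Tfpi, had log2 fold changes of -0.38 ± 0.29, -0.00093 ± 0.12 and -0.26 ± 0.24. Cfb, the protease of the alternative convertase, had -0.13 ± 0.25 at 4.87 to 9.03 CPM (75 to 183 counts). Nelfe overlaps Cfb on the opposite strand with a mean of 558 counts in the liver, so the Cfb counts may hold reads of Nelfe. The receptors C3ar1 and C5ar1, which were low in the liver at 0.592 to 2.80 CPM, had -0.21 ± 0.26 and 0.31 ± 0.43.

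In all, the groups did not overlap for 5 of 46 liver members, against 14.5% of all genes, 3 of them higher with esculetin and 2 lower. The lower ones, named because of these values, were F3 and Cfp. F3, tissue factor, measured 2.03, 1.92 and 1.98 CPM in the controls and 1.74, 1.49 and 1.29 CPM with esculetin, a log2 fold change of -0.38 ± 0.29 with an adjusted p of 0.748 in edgeR. Cfp, properdin, the stabilizer of the alternative convertase, measured 35.1, 36.0 and 45.8 CPM in the controls and 33.9, 30.8 and 32.1 CPM with esculetin. Its lowest control and its highest esculetin library were 35.1 and 33.9 CPM, and the log2 fold change was -0.27 ± 0.14 with an adjusted p of 0.635 in edgeR.

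Properdin and C1q are made by liver macrophages, and their levels can be set beside the markers of these cells. C1qa had 63.5, 67.8 and 92.9 CPM in the controls and 72.5, 68.8 and 72.5 CPM with esculetin, and C1qb and C1qc lay in the same range, from 58.7 to 90.6 CPM. The 3 chains, which form 1 molecule in equal parts, shared their highest and lowest library, control replicates 3 and 1, and their log2 fold changes ran from -0.068 to 0.015. Of the 9 Kupffer cell markers, 7 had log2 fold changes below 0, 3 had an unadjusted p under 0.05 and 0 were called, and their sum was 418 to 508 CPM in the controls and 401 to 448 CPM with esculetin. Marco, a scavenger receptor, read 4.67, 4.39 and 3.96 CPM in the controls and 2.83, 2.60 and 2.20 CPM with esculetin, and Cd68, Csf1r and Adgre1 were likewise lower without overlap, with adjusted p-values from 0.456 to 0.608 in edgeR, whereas Vsig4, Timd4, Cd5l, Clec4f and Lyz2 overlapped. These markers were picked out after their values were seen. In bulk tissue fewer cells of a type and less RNA per cell cannot be told apart, and the part of these cells in the Cfp value was not tested.

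**Figure D2:**
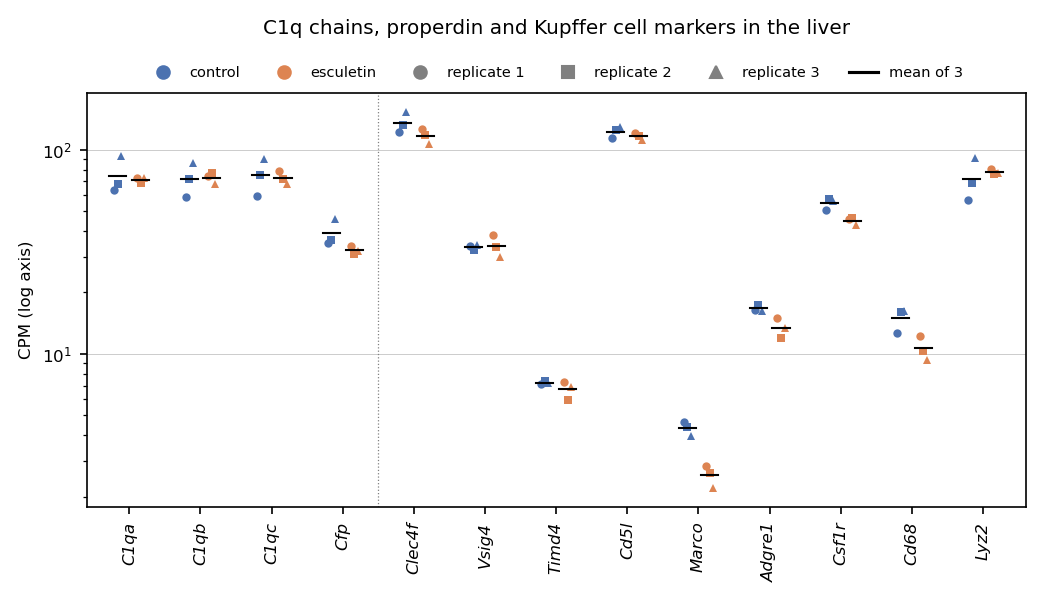
CPM (log axis) of the C1q chains and Cfp (left of the dotted line) and of 9 Kupffer cell markers in each of the 6 liver libraries; shapes are replicates, colours are groups and bars are means of 3. The C1q chains overlap between groups, while Cfp, Marco, Adgre1, Csf1r and Cd68 are lower in every esculetin library than in every control.

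Beyond the members, 65 further genes of complement, coagulation and fibrinolysis were listed from general knowledge, and 52 of them were tested in the liver. Of these, 0 were called by edgeR, DESeq2 or limma-voom, 4 had an unadjusted p under 0.05, and the median log2 fold change was 0.018. Over all genes tested in the liver, edgeR called 0.0859% and gave 8.37% an unadjusted p under 0.05, so the 4 of 52 lay near the background. Cpb2, the carboxypeptidase that slows clot lysis, was named after its values were seen. It stood at 276, 336 and 350 CPM in the controls and at 435, 409 and 429 CPM with esculetin, without overlap, and had a log2 fold change of 0.40 ± 0.13 with an adjusted p of 0.393 in edgeR.

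In the RAW264.7 cells, most members were too low to test. Of the 16 that were tested 8 were called, a share below the 57.7% called over all genes. The members took 0.0138% to 0.0152% of the counts in the controls and 0.0229% to 0.0309% with esculetin. Of the 47, 12 had 0 counts in all 6 libraries, 12 more never exceeded 3 counts in a library, 7 exceeded 3 counts but did not pass the filter, and 16 were tested. A count of 3, the most that a count of 0 allows, stood for 0.150 to 0.218 CPM before TMM scaling in these libraries, for counting error only. Of the 16, 8 were called by edgeR against 57.7% of the 13277 genes tested: 5 were higher against 28.7% of genes, and 3 were lower against 29.0%. The groups did not overlap for 7 of the 16, against 64.1% of genes. The median log2 fold change was 0.20, against -0.013 for all genes.

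C1qa, C1qb and C1qc, a classical product of macrophages, had 0 counts in all 6 cell libraries, so no effect of esculetin on C1q could be described in these cells. Also at 0 were Mbl1, Mbl2, C6, C8a, C8b, C4bp, F11, Fgg and Plg, products of hepatocytes. F13a1, a factor XIII subunit of monocytes and platelets, had at most 2 counts in a library.

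**Figure D3:**
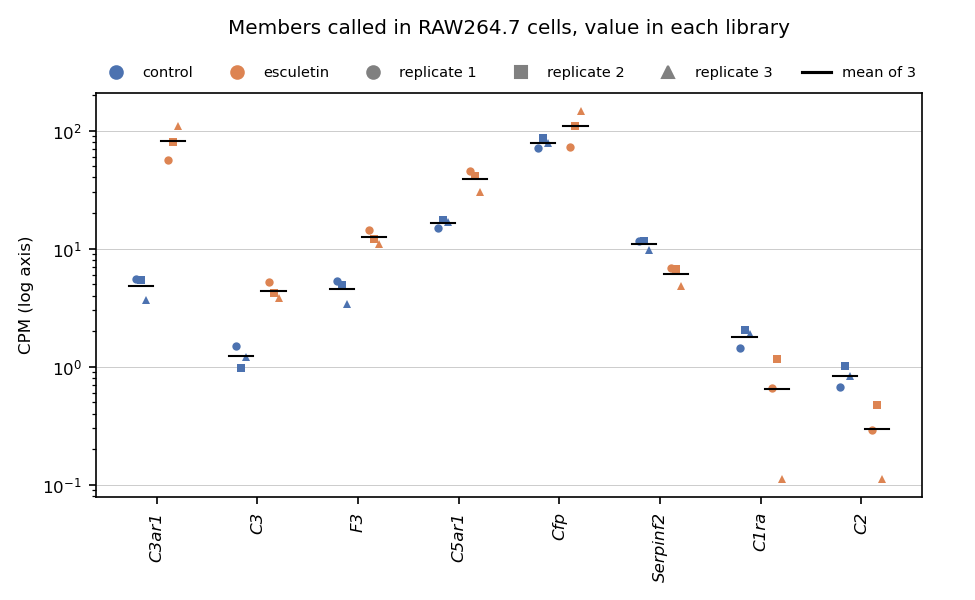
CPM (log axis) of the 8 members called in RAW264.7 cells, in each of the 6 libraries; shapes are replicates, colours are groups and bars are means of 3. C3ar1, C3, F3 and C5ar1 lie higher in every esculetin library, Serpinf2, C1ra and C2 lower, and the Cfp groups overlap.

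C3ar1 and C5ar1, the members that are receptors for the anaphylatoxins, the small peptides cut from C3 and C5, rose. C3ar1, the C3a receptor (chr6:122823393-122833122), had 5.49, 5.38 and 3.65 CPM in the controls and 55.9, 79.5 and 109 CPM with esculetin. Its lowest esculetin library was far above its highest control, and replicate 3 was highest. This was a log2 fold change of 4.08 ± 0.25, a 16.9-fold rise, with an adjusted p of 3.22e-07 in edgeR. C5ar1, the C5a receptor (chr7:15980668-15993465), went from 14.9, 17.3 and 16.8 CPM to 45.3, 40.8 and 29.9 CPM, also without overlap. Here replicate 1 and not 3 was the highest esculetin library, and the log2 fold change was 1.24 ± 0.15 with an adjusted p of 4.22e-05. C5ar2, another C5a receptor, which is in the longer list and not among the members, was not called. It had 9, 7 and 20 counts in the controls and 12, 14 and 10 with esculetin. The log2 fold change of C5ar2 was 0.36 ± 0.48, with an adjusted p of 0.543 in edgeR. Its interval on the log2 scale ran from -0.70 to 1.42.

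C3 itself was higher with esculetin, from a low level, and the call of properdin (Cfp) depended on the processing. C3 had 1.503, 0.968 and 1.22 CPM (29, 18 and 25 counts) in the controls and 5.20, 4.23 and 3.79 CPM (71, 62 and 68 counts) with esculetin, without overlap. It had a log2 fold change of 1.83 ± 0.27, a 3.55-fold rise, with an adjusted p of 0.000158 in edgeR. Per kb of exon the esculetin cells reached 0.850 ± 0.139 CPM per kb of C3 and the livers with esculetin 740 ± 11.9, as levels from separately scaled tables. Cfp, the member of highest CPM in the cells, had 70.6, 85.6 and 78.1 CPM in the controls and 72.8, 110 and 146 CPM with esculetin. The groups overlapped, since esculetin replicate 1 lay inside the range of the controls. Cfp had a log2 fold change of 0.49 ± 0.19 with an adjusted p of 0.0466 in edgeR. The call was lost in 8 of 15 alternatives, among them limma-voom (adjusted p 0.0692), and without esculetin replicate 3 the value was 0.23 with an adjusted p of 0.206.

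F3, tissue factor, which starts clotting on the surface of activated monocytes (chr3:121516610-121528820), rose from 5.29, 4.89 and 3.41 CPM to 14.5, 12.0 and 10.9 CPM, without overlap. On the log2 scale the fold change was 1.46 ± 0.20, a 2.75-fold rise, with an adjusted p of 7.96e-05 in edgeR. Tfpi, the inhibitor of the tissue factor complex, overlapped at 3.16, 3.01 and 2.58 CPM in the controls and 5.34, 3.82 and 2.12 CPM with esculetin, and its log2 fold change was 0.35 ± 0.31. Its interval on the log2 scale ran from -0.34 to 1.04, which leaves a rise of 2-fold inside it.

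The 3 members that fell were Serpinf2, C1ra and C2. Serpinf2, the plasmin inhibitor alpha-2-antiplasmin, had 11.6, 11.7 and 9.68 CPM in the controls and 6.81, 6.68 and 4.85 CPM with esculetin, without overlap. Its log2 fold change was -0.85 ± 0.18, with an adjusted p of 0.00155 in edgeR. C1ra, a protease of the C1 complex, had 28, 38 and 39 counts in the controls and 9, 17 and 2 counts with esculetin. C2, which supplies the protease of the classical C3 convertase, had 13, 19 and 17 counts in the controls and 4, 7 and 2 counts with esculetin. Neither gene overlapped between groups, and in both replicate 3 held the fewest counts. The log2 fold changes were -1.52 ± 0.54 for C1ra and -1.54 ± 0.54 for C2, with adjusted p-values of 0.0299 and 0.0287 in edgeR. Without control replicate 2 these were 0.0909 and 0.113, without control replicate 3 they were 0.0785 and 0.0731, and without esculetin replicate 3 the log2 fold changes were -0.97 for C1ra and -1.11 for C2, with adjusted p-values of 0.0605 and 0.113. C1ra also lost its call without control replicate 1 (adjusted p 0.0580) and C2 without esculetin replicate 1 (adjusted p 0.0527). In all, C1ra was not called in 4 of 15 alternatives and C2 in 5 of 14. C2 lies on the opposite strand over Zbtb12, which had a mean of 165 counts in the cells, and since the strand setting of the counting was not stated, reads of both genes cannot be told apart.

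The 8 tested members without a call were Masp2, F9, Tfpi, C8g, Serpinc1, Pros1, F10 and C4b, with log2 fold changes from 0.61 for Masp2 to -0.75 for C4b. Their intervals were wide: only 1 of the 16 tested members had a 95% interval within 1.5-fold and 4 had one within 2-fold. C8g, Masp2 and Serpinc1 overlap Fbxw5, Tardbp and Zbtb37 on the opposite strand, which had means of 902, 2578 and 392 counts in the cells. The low counts of C8g, Masp2 and Serpinc1 may therefore hold reads of these neighbours. For C4b and C1ra, near-identical copies exist in the genome (C4a and C1rb), and reads shared with a copy make their counts uncertain.

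Of 8 listed macrophage markers, 7 were tested and 4 were called, all higher, a share near the 57.7% of all genes called in the cells. Their summed level was 2220 to 2386 CPM in the controls and 4909 to 7409 CPM with esculetin. Lyz2, lysozyme, went from a mean of 638 CPM in the controls to 3496 CPM with esculetin, a log2 fold change of 2.45. Csf1r, at means of 848 and 1654 CPM, rose by 0.96 on the log2 scale, and Cd68, Fcgr1 and Ptprc were not called. Like C3ar1 and Cfp, Lyz2 had its highest value, 4704 CPM, in esculetin replicate 3. The part of these markers in the rise of C3ar1, C5ar1, C3 and F3 was not tested.

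In the longer list of 65 genes, 27 were tested in the cells and 18 were called, 15 higher and 3 lower, where 57.7% of all genes tested in the cells were called, 28.7% higher and 29.0% lower. Both plasminogen activators and the receptor of urokinase were higher with esculetin. Plaur, the urokinase receptor, went from 11.6, 11.5 and 10.7 CPM to 39.7, 56.4 and 96.0 CPM, a log2 fold change of 2.51 ± 0.26 with an adjusted p of 1.30e-05 in edgeR. Its ligand Plau, urokinase, named like Plat after its values were seen, went from 307, 322 and 312 CPM to 726, 1353 and 2231 CPM. Both had their highest value in esculetin replicate 3, and the groups were separate for each, and the log2 fold change of Plau was 2.20 ± 0.30. Plat, the tissue-type activator, had a log2 fold change of 1.67 ± 0.21. Of the subunits that dock plasminogen to the cell surface, Anxa2 and S100a10 were abundant at means of 701 and 268 CPM in the controls and were not called, with log2 fold changes of 0.19 ± 0.11 and -0.013 ± 0.080. The interval of S100a10 on the log2 scale ran from -0.19 to 0.16.

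**Figure D4:**
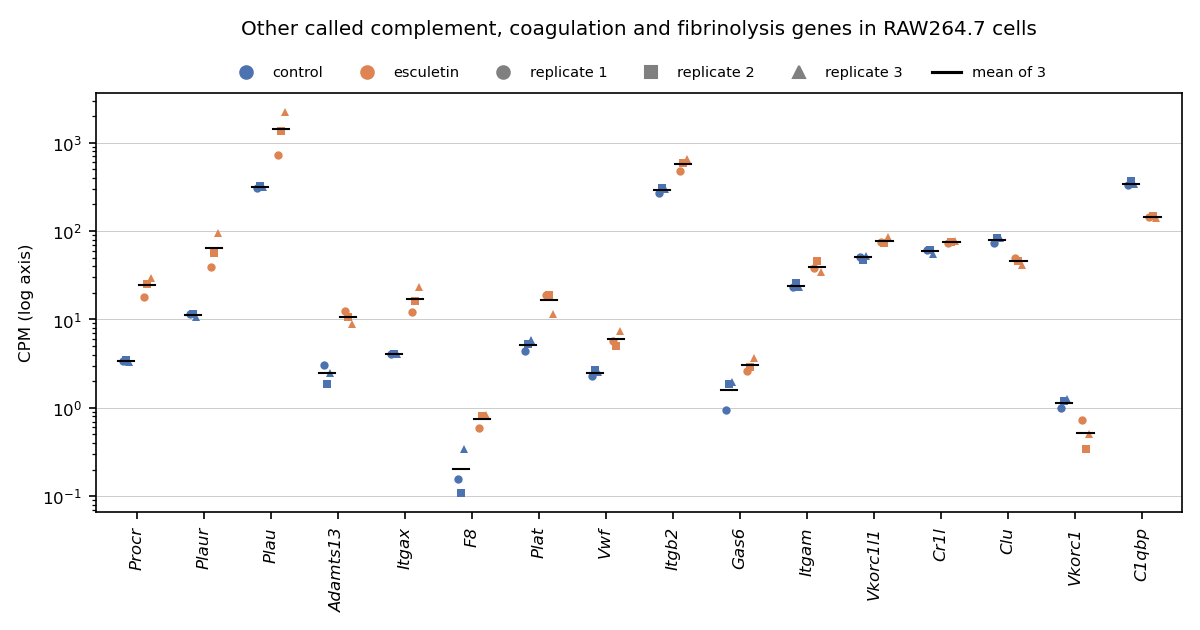
CPM (log axis) of 16 other called complement, coagulation and fibrinolysis genes in RAW264.7 cells, in each of the 6 libraries (Cd93, with 0 to 3 counts per control library, is left out); shapes are replicates, colours are groups and bars are means of 3. From Procr to Cr1l the esculetin libraries are higher, and Clu, Vkorc1 and C1qbp are lower, with no overlap in any of the 16.

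Among the receptors, Procr, the endothelial protein C receptor, rose from 3.37, 3.50 and 3.31 CPM to 17.9, 25.2 and 29.7 CPM, a log2 fold change of 2.84 ± 0.19 with an adjusted p of 6.93e-07 in edgeR. Thbd, its partner in protein C activation, had at most 1 count in any cell library. Itgax and Itgb2, the chains of the complement receptor CR4, both rose, with log2 fold changes of 2.09 ± 0.22 and 0.98 ± 0.11 and adjusted p-values of 1.44e-05 and 2.96e-05. Adamts13, the protease that cuts von Willebrand factor, had 3.06, 1.88 and 2.48 CPM in the controls and 12.4, 10.6 and 8.98 CPM with esculetin, a log2 fold change of 2.10 ± 0.22 with an adjusted p of 1.22e-05. Cd93, a C1q-related surface protein named after its values were seen, had 0, 3 and 2 counts in the controls and 22, 36 and 51 with esculetin. F8, which encodes factor VIII, was also low, at 3, 2 and 7 counts in the controls and 8, 12 and 15 with esculetin. It overlaps Fundc2, which had a mean of 1451 counts in the cells, so reads of the 2 genes may be mixed.

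The 3 lower genes of this list were C1qbp, Clu and Vkorc1. C1qbp, a mitochondrial protein that also binds C1q, had 331, 365 and 337 CPM in the controls and 145, 150 and 141 CPM with esculetin, a log2 fold change of -1.25 ± 0.081 with an adjusted p of 4.91e-07 in edgeR. Clu, clusterin, an inhibitor of the terminal complex, fell from 73.4, 84.0 and 82.5 CPM to 49.1, 46.4 and 41.2 CPM, a log2 fold change of -0.81 ± 0.098 with an adjusted p of 3.55e-05. Vkorc1, the vitamin K reductase that warfarin inhibits, had only 19, 22 and 26 counts in the controls and 10, 5 and 9 with esculetin, and its call (adjusted p 0.0346) was lost in 8 of 15 alternatives. Its paralog Vkorc1l1 had a log2 fold change of 0.62 ± 0.092, although Gusb overlaps it on the opposite strand with a mean of 5632 counts.

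The effects in the cells and the liver were compared in 1 model of all 12 libraries, although dose, route and time differed between the experiments. The difference, the log2 fold change in the cells minus that in the liver, was called by edgeR for 27.1% of 15709 genes, for 36.5% of the 10449 genes tested in both tables and for 6 of the 16 members tested in both. It was above 0 for C3ar1 at 4.24 ± 0.36 (adjusted p 1.86e-06), F3 at 1.80 ± 0.34 (adjusted p 0.00101) and C3 at 1.73 ± 0.29 (adjusted p 0.000347). It was below 0 for C2 at -1.76 ± 0.47 (adjusted p 0.0109), C1ra at -1.63 ± 0.44 (adjusted p 0.0119) and Serpinf2 at -0.95 ± 0.21 (adjusted p 0.00300). For C5ar1, which rose in the cells, the difference was 0.88 ± 0.41 with an adjusted p of 0.129, and the liver held 0.592 to 1.36 CPM of C5ar1. The difference of Cfp, -0.27 in the liver and 0.49 in the cells, was 0.72 ± 0.26 with an adjusted p of 0.0518 in edgeR, and it was called in 9 of 18 alternatives (adjusted p 0.00314 to 0.152).

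**Figure D5:**
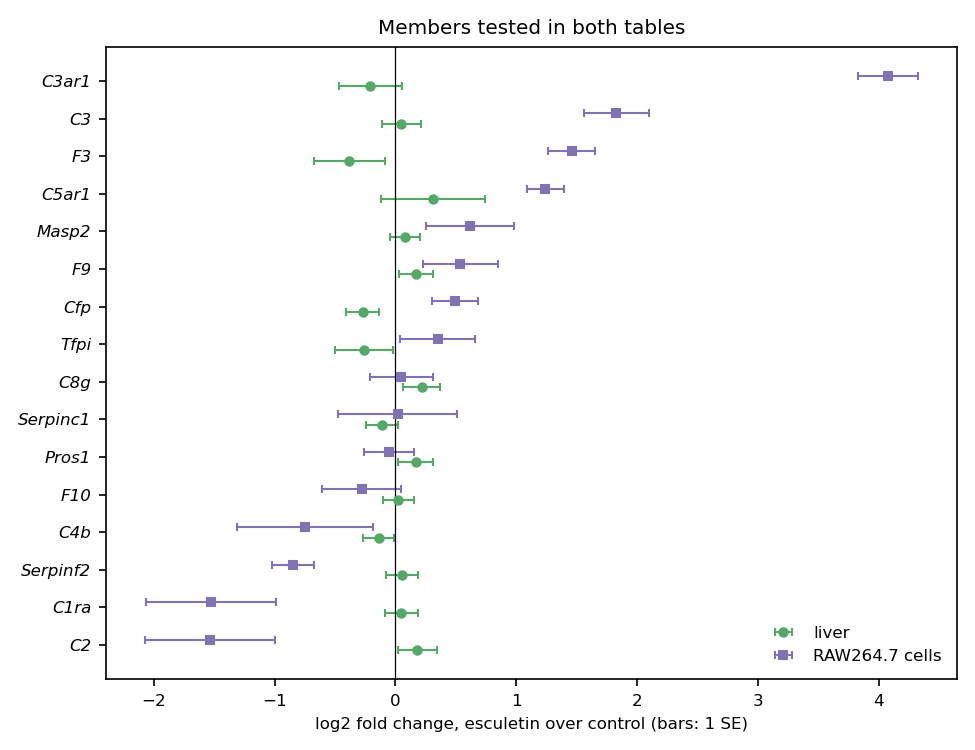
Log2 fold change of esculetin over control (horizontal axis) of the 16 members tested in both tables, in the liver (circles) and in RAW264.7 cells (squares); bars are 1 SE and the line marks no change. The liver values lie between -0.38 and 0.31, and the cell values between -1.54 and 4.08.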

How the data were processed

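RNA of 6 liver samples, each pooled from 2 mice, and 6 RAW264.7 samples was sequenced by the authors with 150-bp paired ends from a NEBNext Ultra library, aligned to GRCm39 with HISAT2 2.2.1 and counted per gene with featureCounts. The submitters' processing notes also list mm10. The deposited values are raw counts. The strand setting, the handling of multi-mapping reads and the annotation release were not given in the sources used here. Symbols came from GENCODE for GRCm39, which matched 54749 of 55357 identifiers.

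The liver and the cell table were fitted separately with edgeR 4.0.16 in R 4.3.3 (filterByExpr, TMM, quasi-likelihood test, two-sided), with Benjamini-Hochberg adjustment over every gene that passed the filter. A single gene in 3 against 3 libraries cannot reach an exact permutation p under 0.1, so these p-values rest on error shared across genes. The difference of effects was tested in a 4-group model. SE is the log2 fold change over the root of the F statistic, and SDs are over 3 libraries. The scripts were tested on simulated data. The members and lists were chosen with earlier results of these data known.

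Described in full were members called in a table, members without overlap at an unadjusted p under 0.05 and the 3 of highest CPM, and of the longer list up to 6 called genes with the smallest p in each direction. An item that this rule names is not reported here. No library repeated another: any pair within a group differed by more than sampling noise (chi-square per degree of freedom 2.93 to 77.5). Alternatives were RLE, upper-quartile and library-size scaling, other filters, DESeq2 1.42.0, limma-voom 3.58.1 with adjusted p-values and with the study's criterion (unadjusted p under 0.05, fold over 1.5), robust dispersion, a replicate block and leaving out each library. Promoters were read from the GRCm39 genome.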

Additional observations from a re-analysis of the deposited data

Results flagged for a closer look

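For 6 of the 16 members tested in both tables, against 36.5% of all genes tested in both, the test of the difference between the effects of esculetin in the cells and in the liver passed the threshold. The difference of the log2 fold changes, cells minus liver, was 4.24 for C3ar1, 1.80 for F3 and 1.73 for C3, which rose in the cells, and -1.76 for C2, -1.63 for C1ra and -0.95 for Serpinf2, which fell there. In the liver none of these 6 was called, with log2 fold changes of -0.21 for C3ar1, -0.38 for F3, 0.046 for C3, 0.18 for C2, 0.048 for C1ra and 0.052 for Serpinf2. The experiments differ in dose, route, time and the high-fat diet or oxLDL that both groups received, and these cannot be told apart from the tissue. The difference for C2 was not called in 1 of 18 alternatives (highest adjusted p 0.0579 in edgeR), and the other differences were called in all 18.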

How the results depend on the processing

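With 0 liver members called, 2 were called without the filter on low counts, 1 by DESeq2 and 1 by the study's criterion, and 0 under each of the other alternatives, each left-out library included. Of the 52 other liver genes 1 was called without the filter and 1 by the study's criterion. Over all genes the 11 liver calls became 0 with library size only, 339 without the filter, 98 with DESeq2, 499 by the study's criterion, and 0 to 31 on leaving out 1 library. In the cells the 8 called members became 5 to 7 on leaving out 1 library. The lowest, 5, came when control replicate 2 or 3 was left out. The 7667 genes called in the cells became 5041 by the study's criterion. Counts by this criterion were obtained here with limma-voom and are not the study's own counts. Among the liver genes described in full, 3 log2 fold changes near 0 turned in sign, and turns of the other members were not counted. C3 turned to -0.013 with library size only. On leaving out 1 library C3 ran from -0.052 to 0.23, Fga from -0.12 to 0.070 and Fgb from -0.025 to 0.13. Deviations of same-numbered libraries correlated at 0.16, -0.010 and 0.12 in the liver and at 0.20, -0.043 and 0.13 in the cells, and replicate 2 did not correlate best with its own number, so the numbers were not taken as a pairing. A replicate block left 0 liver and 8 cell members called and moved the liver calls over all genes to 123 and the cell calls to 7982. Low counts limit C1ra, C2, C3 and Vkorc1 in the cells.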
